A study of Mus musculus with 10 samples.

Results

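The genes described are 32 members of 2 stress-linked groups, 22 immediate early genes and 10 heat shock genes, picked by symbol from a table of 24475 genes measured in mouse pancreatic islets. All 32 symbols were found. Of these, 30 had a mean of at least 0.5 RPKM (reads per kilobase of transcript and per megaread of depth) over the 10 libraries and could be tested, 20 immediate early and all 10 heat shock genes. The members left untested were Fosl1 and Egr3. The islets came from C57BL/6 mice given REGN1193, a blocking antibody against the glucagon receptor (GCGR; libraries 1 to 5), or an isotype control antibody (libraries 6 to 10). Islets were taken out of the pancreas and purified on a density gradient before RNA was made. Dose, duration, age, sex and batch are not in the labels. Whether 1 mouse or several stand behind a library is not in them either, so each p-value reflects library-to-library spread, which may be technical.

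Immediate early genes are switched on within minutes of a stimulus without new protein synthesis. Growth factors, calcium, cAMP and cell damage reach them through serum response factor at CArG boxes and through CREB at cAMP response elements, and many of their products are transcription factors that act on later genes. Heat shock genes encode chaperones that hold and refold proteins, and misfolded protein turns on the inducible ones through heat shock factor 1, which binds repeats of the unit GAA. Both groups are known to respond to tissue dissociation, which islets undergo when they are isolated.

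Short stretches upstream of 8 members are printed to show the elements through which the 2 groups are known to be switched on. They are RefSeq sequences of GRCm38.p6, in which 18 of the 22 immediate early and 8 of the 10 heat shock genes were matched to a promoter (unmatched were Fosl1, Egr1, Egr3, Ier2, Hspa8 and Hsp90aa1). Each is given 5′ to 3′ on the strand of its gene. Capitals mark the core letters TGACG and the box TATAAA in Fos, the full cAMP response element in Dusp1, an EGR site and then a CArG box in Zfp36, a pair of abutting CArG boxes in Dusp5, and heat shock repeats in the others.
Fos (chr12:85473790-85473889, plus strand): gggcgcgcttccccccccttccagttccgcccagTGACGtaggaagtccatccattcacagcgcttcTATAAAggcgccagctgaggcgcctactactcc
Dusp1 (chr17:26508573-26508632, minus strand): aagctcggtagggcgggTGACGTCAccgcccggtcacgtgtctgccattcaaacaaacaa
Zfp36 (chr7:28379259-28379348, minus strand): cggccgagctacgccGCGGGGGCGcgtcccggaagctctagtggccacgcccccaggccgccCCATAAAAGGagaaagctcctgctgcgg
Dusp5 (chr19:53529045-53529104, plus strand): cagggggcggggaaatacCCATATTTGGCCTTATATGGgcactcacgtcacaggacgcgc
Hspb1 (chr5:135887789-135887848, plus strand): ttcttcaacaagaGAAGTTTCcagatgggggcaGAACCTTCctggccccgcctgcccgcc
Hspa1a (chr17:34972227-34972286, minus strand): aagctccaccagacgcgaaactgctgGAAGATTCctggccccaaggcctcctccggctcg
Hspa1b (chr17:34959309-34959368, minus strand): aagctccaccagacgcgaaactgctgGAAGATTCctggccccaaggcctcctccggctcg
Hspe1 (chr1:55088055-55088083, plus strand): tccgTTCTAGAACCTTCCGGAAggccccg

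Matches were searched on both strands in the 250 bases before each annotated start, and a gene counted if any of its starts had one. The repeat GAANNTTC stood before 5 of 8 heat shock genes (62.5%; Hspa1a, Hspa1b, Hspb1, Hspd1 and Hspe1), 2 of 18 immediate early genes (11.1%) and 7.73% of all 27025 genes in the promoter table. Its counterpart TTCNNGAA, which can overlap it, stood before 3 of 8 heat shock genes (37.5%; Hspd1, Hspe1 and Hsph1), 1 of 18 immediate early genes (5.56%) and 8.11% of all genes. In Hspe1 the 3 overlapping repeats span 18 bases, and the same bases (chr1:55088059-55088076) lie upstream of a start of Hspd1 on the opposite strand, 216 bases from that of Hspe1. The windows of Hspa1a and Hspa1b were alike in 247 of 250 bases, including all 60 printed. The matches of Hspd1 and Hspe1, and those of Hspa1a and Hspa1b, are therefore not independent cases in these counts.

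Among immediate early genes, the CArG box was found before 3 of 18 (16.7%; Dusp5, Egr2 and Zfp36), against 0 of 8 heat shock genes and 1.62% of all genes. The cAMP response element TGACGTCA was found before Btg2 and Dusp1 (11.1%), against 1.77% of all genes. Its core TGACG, which the full element contains and which was added to the search later, was found before 11 of 18 (61.1%), against 4 of 8 heat shock genes (50%) and 19.8% of all genes. The EGR site GCGNGGGCG stood before 7 of 18 (38.9%), against 0 of 8 heat shock genes and 5.33% of all genes. The AP-1 site TGANTCA was found before 0 of 18, against 1 of 8 heat shock genes (Bag3) and 7.82% of all genes. The letters TATAAA stood before 2 of 18 (Fos and Nr4a2), against 0 of 8 heat shock genes and 14.3% of all genes. They lay 33 to 28 bases before the start in Fos but 164 to 159 bases before it in Nr4a2. These are letter matches in short windows, not measured binding, and a missing match says only that these letters are not in the window.

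Depth, read off the spacing of low RPKM values, came to an estimated 14.5 to 18.0 megareads in the antibody libraries and 12.3 to 14.8 megareads in the isotype libraries. As a check of the labelled tissue, all 10 beta cell genes were above 0 in every library, summing to 199184 to 356419 RPKM in antibody libraries and 298632 to 472621 RPKM in isotype libraries. Of 7 alpha cell genes 6 were called higher with the antibody. These are whole islets, so fewer cells of a type and less RNA per cell cannot be told apart.

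No member of either group was called different between antibody and isotype islets. Values were compared as log2(RPKM + 0.5) with limma over all 13450 tested genes, with Benjamini-Hochberg adjustment and a threshold of 0.05. The counts were 0 higher and 0 lower among 20 immediate early genes and 0 higher and 0 lower among 10 heat shock genes, where 0.394% of all tested genes were called higher and 0.0149% lower. At an unadjusted p under 0.05, limma counted 0 higher and 1 lower in each group (Ier5 and Hspb1), against 2.84% higher and 4.18% lower over all tested genes. After median centring of the libraries, the unadjusted calls over all genes were 584 higher and 301 lower in place of 382 and 562, while the counts among the members were again 0 higher and 1 lower in each group. Other settings gave more: 5 immediate early genes were lower at that unadjusted limit without isotype library 6, 3 without antibody library 2 and 3 with the acinar level as a covariate. Among heat shock genes 4 were lower with that covariate and 2 with array weights. Of all 13450 tested genes, 804 were lower at that limit without isotype library 6 and 428 without antibody library 2. With the acinar covariate 1057 of the 13450 were lower, and with array weights 1227. The exact permutation test over the 252 assignments of libraries, adjusted over all genes, called 0 genes in the whole table. Its smallest possible p was 0.00794, so after this adjustment it could call a gene only if very many genes reached that limit. Its lack of calls therefore says nothing about the members.

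The folds of the members were mostly negative. Of the 20 immediate early genes 15 had negative log2 fold changes and 5 positive ones, with a median of -0.35 and a range of -0.75 to 0.26. Of the 10 heat shock genes 9 were negative and 1 positive, with a median of -0.19 and a range of -0.85 to 0.28. Over all tested genes 8938 were negative and 4512 positive, and the median was -0.07.

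**Figure D1:**
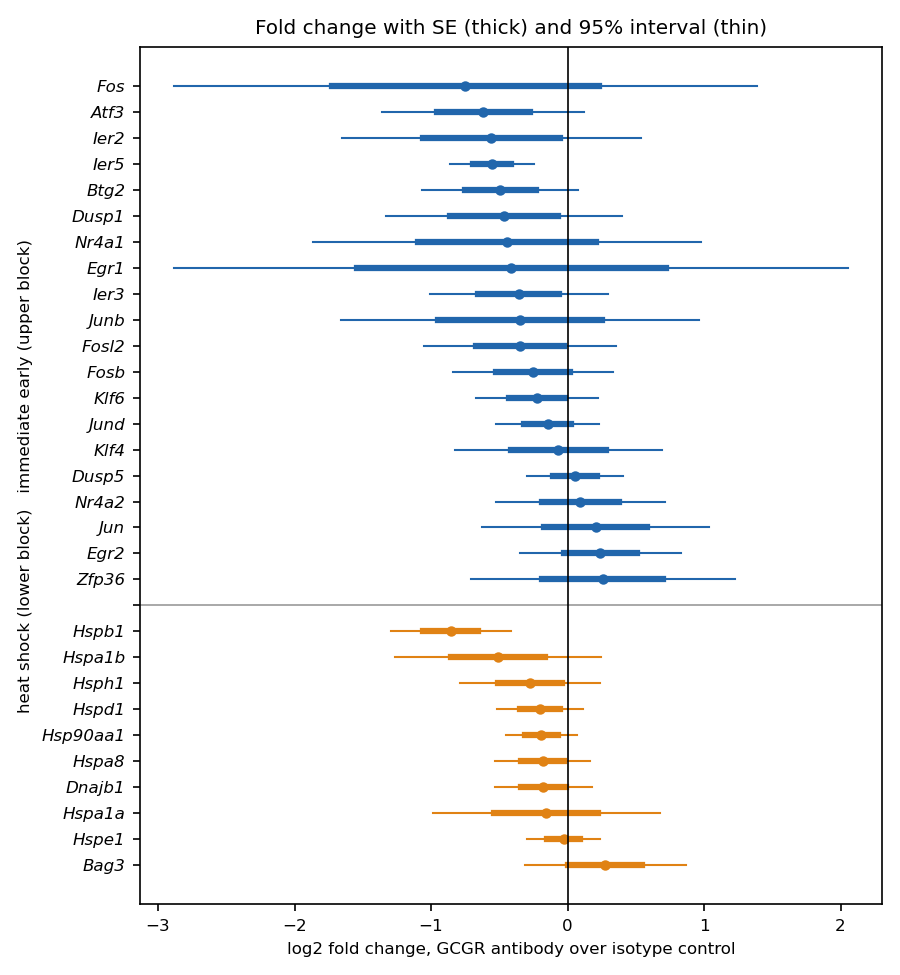
Log2 fold change of each tested member, GCGR antibody over isotype control (x axis), for immediate early genes (blue, upper block) and heat shock genes (orange, lower block), sorted by fold within each block. Points are limma estimates, thick bars 1 SE and thin bars the 95% interval before adjustment. The intervals of Ier5 and Hspb1 lie below 0, those of the other members include 0, and those of Fos and Egr1 are the widest.

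The immediate early genes varied widely between libraries of the same group. Egr1, a zinc finger transcription factor, stood at 6.98, 96.6, 31.6, 2.45 and 4.86 RPKM in antibody libraries 1 to 5 and at 2.54, 106, 26.0, 48.1 and 3.21 RPKM in isotype libraries 6 to 10. Library 2 in the antibody group and libraries 7 and 9 in the isotype group were high, libraries 4, 6 and 10 low, and the groups overlapped over nearly their whole range. In RPKM the highest library, 7, was 43.2 times the lowest, 4. Estimated reads per library ran between 97.3 and 4315. Its log2 fold change was -0.41 (SE 1.13, 95% interval -2.88 to 2.06, adjusted p = 0.962 by limma), an interval that includes a difference of 2-fold in either direction. The fold was 0.12 without antibody library 4 and 0.24 without isotype library 7.

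Fos, which pairs with JUN proteins to form the factor AP-1, had 4.68, 47.2, 14.2, 1.30 and 2.31 RPKM in antibody libraries 1 to 5 and 1.69, 54.0, 9.98, 30.8 and 5.83 RPKM in isotype libraries 6 to 10. Its 3 highest libraries were 7, 2 and 9, as for Egr1, and its lowest was library 4. The log2 fold change was -0.75 (SE 0.98, 95% interval -2.89 to 1.39, adjusted p = 0.914 by limma). It was -0.20 without isotype library 7, -1.43 without antibody library 2 and -1.51 with the acinar level as a covariate. Left out in turn, isotype library 6 gave -1.36, antibody library 4 gave -0.25, antibody library 5 gave -0.41 and isotype library 9 gave -0.40. Its printed upstream stretch holds the TATA box and the core of a cAMP response element.

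Junb, another AP-1 subunit, repeated the pattern at a narrower range. It stood at 25.1, 88.7, 60.3, 11.7 and 17.4 RPKM in antibody libraries 1 to 5 and at 14.3, 83.1, 38.7, 81.9 and 25.0 RPKM in isotype libraries 6 to 10, with libraries 2, 7 and 9 high and library 4 lowest. The log2 fold change was -0.35 (SE 0.60, adjusted p = 0.942 by limma). Ier2, a nuclear immediate early protein, had 4.04, 18.6, 9.01, 3.10 and 2.97 RPKM in antibody libraries 1 to 5 and 3.98, 18.8, 9.56, 12.4 and 5.82 RPKM in isotype libraries 6 to 10. Libraries 7, 2 and 9 were again its highest, and its log2 fold change was -0.56 (SE 0.50, adjusted p = 0.870 by limma).

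**Figure D2:**
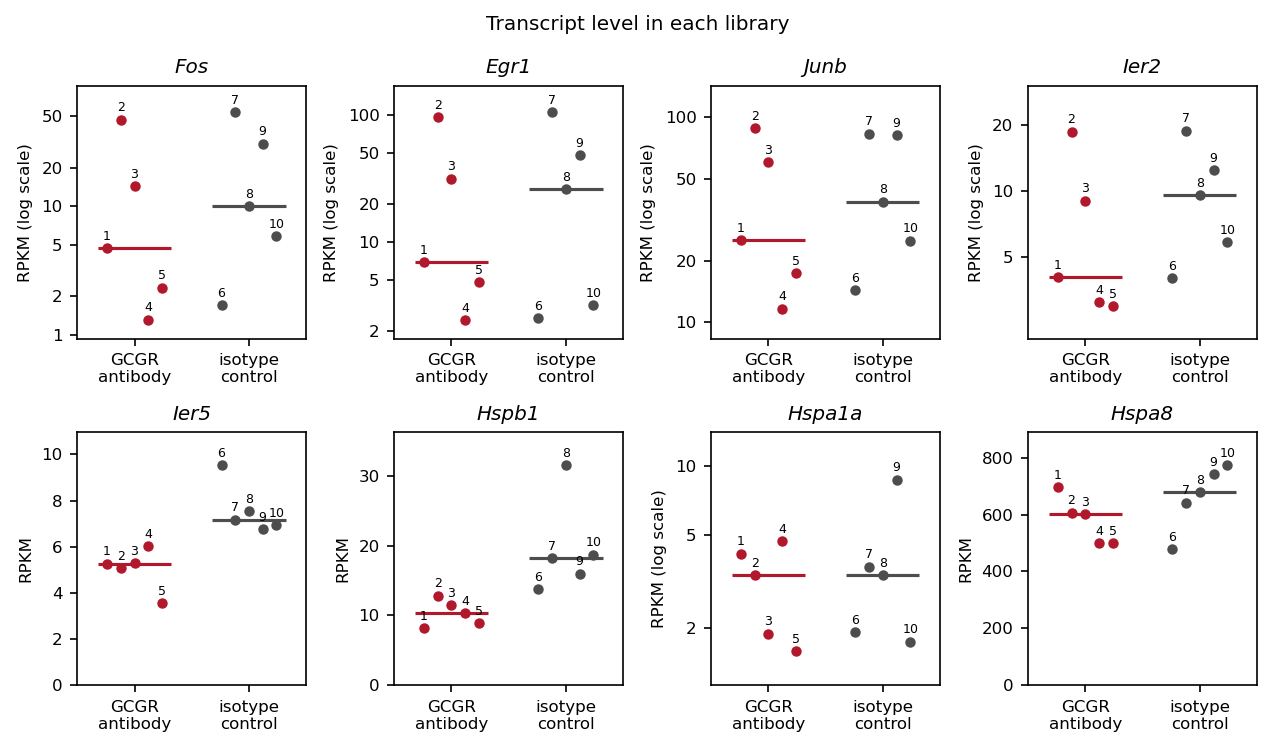
RPKM in each library (y axis; logarithmic for Fos, Egr1, Junb, Ier2 and Hspa1a, linear from 0 for the others) for 8 members, with GCGR antibody libraries (red) left of isotype control libraries (grey). Numbers are library numbers and lines are group medians. Fos, Egr1, Junb and Ier2 are high in libraries 2, 7 and 9 in both groups, whereas Ier5 and Hspb1 are the members whose groups do not overlap.

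The other AP-1 genes ranged from steady to barely measured. Jun averaged 21.3 ± 12.6 RPKM in antibody libraries and 18.2 ± 8.71 RPKM in isotype libraries (SD, n = 5 each; log2 fold change 0.21, SE 0.38), highest in library 2 and lowest in library 6. Jund, which is expressed steadily in most cells, had 33.3, 56.1, 54.5, 52.1 and 36.1 RPKM in antibody libraries 1 to 5 and 43.9, 56.5, 54.2, 57.8 and 40.9 RPKM in isotype libraries 6 to 10, a span of 1.74 times from lowest to highest (log2 fold change -0.14, SE 0.17, adjusted p = 0.905 by limma). Fosl2 averaged 3.65 ± 0.891 RPKM in antibody libraries and 5.22 ± 2.49 RPKM in isotype libraries (SD, n = 5 each; log2 fold change -0.35, SE 0.32). Fosb stayed near the filter on low values, at 0.445 ± 0.279 RPKM in antibody libraries and 0.652 ± 0.417 RPKM in isotype libraries (SD, n = 5 each; log2 fold change -0.25, SE 0.27). Fosl1, not tested, ranged from 0.0801 to 0.793 RPKM in antibody libraries and from 0.0462 to 0.949 RPKM in isotype libraries, 20.5 times from lowest to highest, at an estimated 1.09 to 26.1 reads.

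Atf3, a stress-induced factor of the ATF family, had 4.04, 4.82, 3.89, 3.08 and 1.64 RPKM in antibody libraries 1 to 5 and 2.27, 4.20, 6.10, 7.10 and 10.1 RPKM in isotype libraries 6 to 10. Libraries 9 and 10 were high and libraries 5 and 6 low, a different order from Fos. The log2 fold change was -0.62 (SE 0.34, 95% interval -1.36 to 0.12, adjusted p = 0.766 by limma).

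The remaining EGR and NR4A genes encode transcription factors too. Egr2 averaged 0.705 ± 0.400 RPKM in antibody libraries and 0.506 ± 0.301 RPKM in isotype libraries (SD, n = 5 each; log2 fold change 0.24, SE 0.27), with an estimated 7.95 to 56.7 reads per library. Egr3, not tested, averaged 0.220 ± 0.147 RPKM in antibody libraries and 0.188 ± 0.132 RPKM in isotype libraries (SD, n = 5 each). Nr4a1, an orphan nuclear receptor, had 7.54, 7.70, 7.70, 1.46 and 3.91 RPKM in antibody libraries 1 to 5 and 1.08, 9.18, 4.54, 25.7 and 10.3 RPKM in isotype libraries 6 to 10. Library 9 stood above all others and library 6 lowest, 23.7 times apart, with a log2 fold change of -0.44 (SE 0.65, adjusted p = 0.926 by limma). The sign of that fold rested on library 9, without which it was 0.01. Its relative Nr4a2 averaged 10.4 ± 2.47 RPKM in antibody libraries and 10.3 ± 4.30 RPKM in isotype libraries (SD, n = 5 each; log2 fold change 0.09, SE 0.28).

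Genes that end signals gave overlapping groups too. Dusp1, a nuclear phosphatase of MAP kinases, stood between 8.61 and 26.9 RPKM in antibody libraries and between 8.79 and 37.6 RPKM in isotype libraries, with libraries 9, 7 and 2 highest (log2 fold change -0.47, SE 0.40). The ERK phosphatase gene Dusp5, with the paired CArG boxes, averaged 13.2 ± 2.03 RPKM in antibody libraries and 12.8 ± 3.04 RPKM in isotype libraries (SD, n = 5 each; log2 fold change 0.06, SE 0.16). Zfp36, which speeds the decay of AU-rich mRNAs, averaged 14.7 ± 9.70 RPKM in antibody libraries and 12.1 ± 7.56 RPKM in isotype libraries (SD, n = 5 each; log2 fold change 0.26, SE 0.44).

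Btg2, an antiproliferative gene and the most abundant of the immediate early members per length, had 44.1, 84.0, 52.9, 48.6 and 33.4 RPKM in antibody libraries 1 to 5 and 50.1, 93.5, 59.0, 109 and 59.1 RPKM in isotype libraries 6 to 10. Libraries 9, 7 and 2 were highest and library 5 lowest. The log2 fold change was -0.49 (SE 0.26, 95% interval -1.06 to 0.08, adjusted p = 0.766 by limma). Ier3, a survival gene of the NF-kappaB response, had 14.8, 22.8, 20.3, 8.02 and 11.2 RPKM in antibody libraries 1 to 5 and 10.6, 22.1, 25.7, 15.8 and 23.2 RPKM in isotype libraries 6 to 10, with overlapping groups (log2 fold change -0.36, SE 0.30, adjusted p = 0.863 by limma). The Krüppel-like zinc finger gene Klf4 averaged 5.11 ± 1.16 RPKM in antibody libraries and 6.01 ± 2.96 RPKM in isotype libraries (SD, n = 5 each; log2 fold change -0.07, SE 0.35). Its relative Klf6 averaged 11.5 ± 2.45 RPKM in antibody libraries and 13.7 ± 4.36 RPKM in isotype libraries (SD, n = 5 each; log2 fold change -0.22, SE 0.20).

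Ier5 was the immediate early gene in which the groups stood apart. In cultured human cells its product binds the phosphatase PP2A and activates heat shock factor 1. It had 5.26, 5.07, 5.29, 6.04 and 3.55 RPKM in antibody libraries 1 to 5 and 9.53, 7.18, 7.54, 6.77 and 6.94 RPKM in isotype libraries 6 to 10. Every antibody library lay below every isotype library, and library 6, the lowest isotype library for 18 of the 20 tested members, was here the highest. The log2 fold change was -0.55 (SE 0.14, 95% interval -0.86 to -0.24). The limma unadjusted p was 0.00221 and the limma adjusted p 0.222. The exact permutation p, two-sided, was 0.00794, the smallest that 5 against 5 allows. Any gene whose groups do not overlap gets this p, so it restates the lack of overlap. Groups without overlap were found in 1 of 20 immediate early genes, lower in the antibody group, against 0.84% of all tested genes lower and 1.14% higher. With 1 library left out the fold stayed between -0.62 and -0.44, and of the 21 alternatives array weights alone gave a call (-0.45, adjusted p = 0.0398 by limma). That fit also called more genes over the whole table, 121 higher and 61 lower in place of 53 and 2.

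Most immediate early genes shared an order of libraries that crossed the groups. Library 2 was the highest of the 5 antibody libraries in 17 of 20 tested members, and library 6 the lowest of the 5 isotype libraries in 18 of 20. Over all 10 libraries, library 2 was among the 3 highest in 15 members, library 9 in 14 and library 7 in 12, while libraries 4 and 6 were each among the 3 lowest in 17 and library 5 in 11. The 22 members summed to 225, 588, 362, 202 and 204 RPKM in antibody libraries 1 to 5 and to 189, 589, 345, 527 and 281 RPKM in isotype libraries 6 to 10. Each group thus held both a library near the top of the range and a library near its bottom. The same rank counts were not made over all tested genes, so whether this order is particular to these members is not shown.

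**Figure D3:**
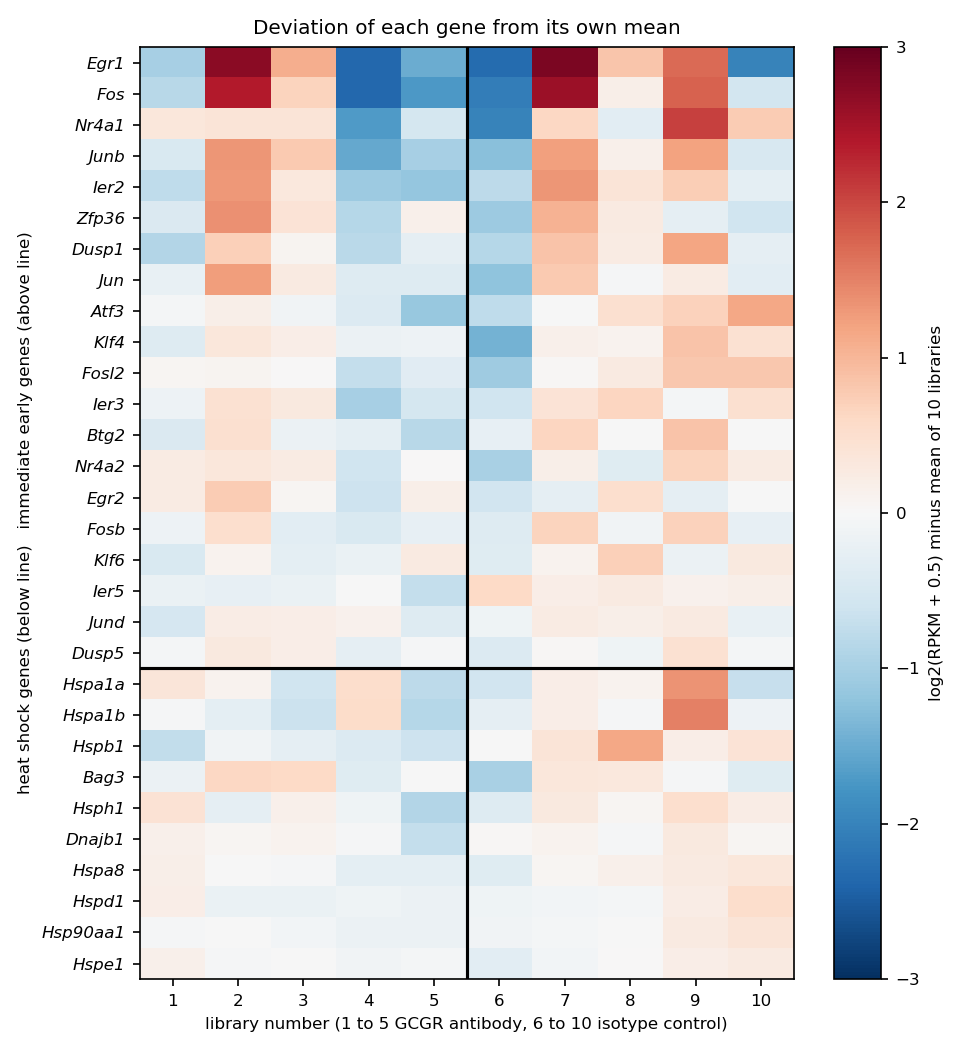
Deviation of each tested member (rows; immediate early genes above the line, heat shock genes below, sorted by spread) from its own mean over the 10 libraries, in log2(RPKM + 0.5), for GCGR antibody libraries 1 to 5 and isotype control libraries 6 to 10 (columns). Red is higher and blue lower. Columns 2, 7 and 9 are red and columns 4 and 6 blue over most immediate early rows, and this banding is weaker among the heat shock rows.

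The immediate early genes were also more variable than most genes in these islets. Their pooled within-group SD on the log2 scale had a median of 0.61, against 0.31 for the heat shock genes and 0.25 for all 13450 tested genes. Of 20 immediate early genes 19 exceeded the median of all tested genes and 13 lay among the top 10% of them; for the heat shock genes the counts were 6 and 2 of 10. The highest library exceeded the lowest by more than 4 times, after adding 0.5 RPKM, in 10 of 20 immediate early genes (50%), 2 of 10 heat shock genes (20%) and 6.54% of all tested genes. Some cell type marker lists varied more than the immediate early genes. Their median SD was 0.95 for acinar, 0.86 for mesenchymal, 0.98 for macrophage, 0.87 for lymphocyte and 0.98 for erythroid genes. The endocrine, ductal, endothelial and Schwann cell lists had lower medians than the immediate early genes. These are descriptions without a test. Egr1 had an SD of 2.17 and Fos one of 1.88, each at about the 99.9th percentile of tested genes, whereas Ier5 had 0.23.

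Macrophage, mesenchymal, ductal and some endocrine markers shared the high and low libraries of the immediate early genes in part, and lymphocyte and acinar markers did not. The 11 macrophage genes, all above 0 in every library, summed to 227, 798, 294, 88.3 and 156 RPKM in antibody libraries 1 to 5 and to 126.8, 242, 669, 129 and 158 RPKM in isotype libraries 6 to 10. The 10 mesenchymal genes, also all above 0, summed to 74.6, 182, 75.7, 15.6 and 32.5 RPKM and to 19.3, 49.8, 173, 38.6 and 50.2 RPKM in the same libraries. Libraries 4 and 6 were lowest in both lists, as in the immediate early sum, and library 2 was the highest antibody library in both. In the isotype group library 8 was highest in both lists, while the immediate early sum was highest in libraries 7 and 9, and library 9 had 1 of the 3 lowest macrophage sums. The 9 lymphocyte genes summed to 12.4, 9.76, 6.38, 8.04 and 56.5 RPKM in antibody libraries 1 to 5 and to 28.3, 8.57, 20.4, 5.89 and 17.4 RPKM in isotype libraries 6 to 10. They were highest in libraries 5 and 6, which were low for immediate early genes, and lowest in library 9. The ductal genes summed lowest in libraries 5, 6 and 4 (404, 429 and 497 RPKM) and highest in libraries 3 and 2 (1222 and 1033 RPKM). The acinar genes summed lowest in library 9 (3252 RPKM), which was high for immediate early genes, and highest in library 8 (18648 RPKM). Within groups, the pancreatic polypeptide cell genes summed highest in libraries 2 (12938 RPKM) and 7 (6364 RPKM), as the immediate early sum did. Library 9, high for immediate early genes, had 4307 RPKM there. The alpha cell genes summed highest in libraries 2 and 8, the delta cell genes in 3 and 8 and the beta cell genes in 3 and 6. The part of any of these cells in the immediate early levels was not tested.

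**Figure D4:**
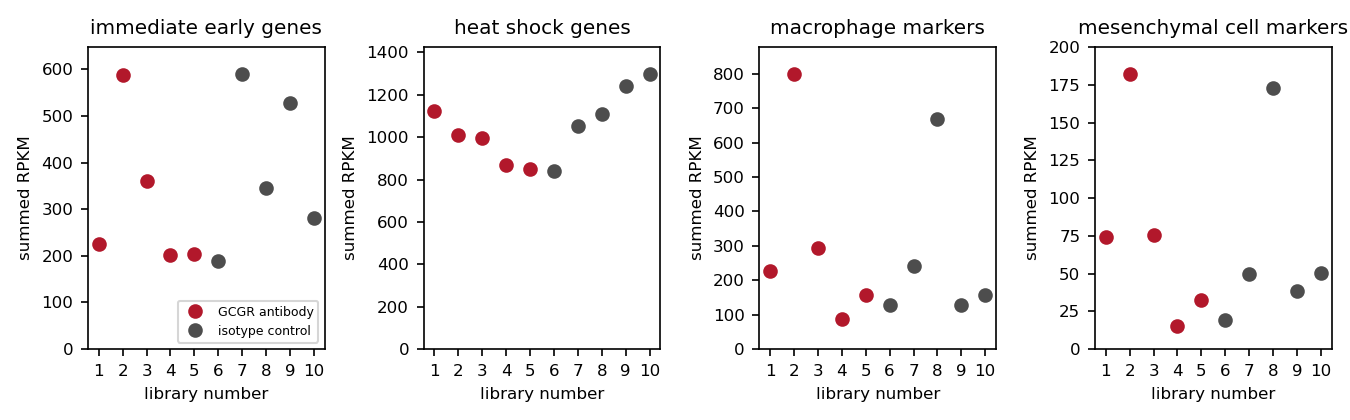
Summed RPKM (y axis, from 0) of the 22 immediate early genes, the 10 heat shock genes, 11 macrophage markers and 10 mesenchymal markers in each library (x axis; GCGR antibody 1 to 5 red, isotype control 6 to 10 grey). The immediate early sum is high in libraries 2, 7 and 9, and both marker lists are high in libraries 2 and 8 and low in libraries 4 and 6.

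The heat shock genes were steadier, above all their most abundant members. The 10 summed to 1122, 1009, 995, 870 and 851 RPKM in antibody libraries 1 to 5 and to 840, 1054, 1109, 1242 and 1296 RPKM in isotype libraries 6 to 10. Library 9 was among the 3 highest of all libraries in 8 of the 10 genes and library 5 among the 3 lowest in 8. Library 2, high for immediate early genes, was among the 3 highest in 1. Here too the rank counts were not made over all tested genes. Hspa8, the constitutive cytosolic HSP70, was the most abundant member per length, at 696, 607, 601, 499 and 500 RPKM in antibody libraries 1 to 5 and 478, 642, 678, 742 and 773 RPKM in isotype libraries 6 to 10. Libraries 9 and 10 were highest and library 6 lowest (log2 fold change -0.18, SE 0.16, 95% interval -0.53 to 0.16, adjusted p = 0.865 by limma). Hsp90aa1, the inducible cytosolic HSP90, had 199, 205, 194, 182 and 182 RPKM in antibody libraries 1 to 5 and 191, 198, 205, 246 and 267 RPKM in isotype libraries 6 to 10. Its antibody libraries lay close together, and libraries 9 and 10 stood above them (log2 fold change -0.19, SE 0.12, 95% interval -0.45 to 0.07, adjusted p = 0.814 by limma).

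The mitochondrial chaperonin pair HSP60 and HSP10, whose genes share an upstream region, stood at similar levels. Hspd1 had 84.9, 64.4, 64.1, 67.9 and 65.2 RPKM in antibody libraries 1 to 5 and 67.9, 70.4, 70.5, 86.6 and 108 RPKM in isotype libraries 6 to 10. Hspe1 had 68.5, 60.8, 61.0, 57.6 and 59.0 RPKM in antibody libraries 1 to 5 and 49.5, 58.5, 62.7, 70.8 and 74.4 RPKM in isotype libraries 6 to 10. In both, libraries 10, 9 and 1 were the 3 highest. The log2 fold changes were -0.20 (SE 0.14, adjusted p = 0.846 by limma) for Hspd1 and -0.03 (SE 0.12, adjusted p = 0.981 by limma) for Hspe1, and the sign for Hspe1 turned under each of the 3 scalings between libraries.

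The inducible HSP70 genes Hspa1a and Hspa1b stayed low. Hspa1a had 4.17, 3.36, 1.88, 4.73 and 1.58 RPKM in antibody libraries 1 to 5 and 1.91, 3.67, 3.38, 8.69 and 1.74 RPKM in isotype libraries 6 to 10. Hspa1b had 2.65, 2.11, 1.57, 4.23 and 1.27 RPKM in antibody libraries 1 to 5 and 2.19, 3.19, 2.65, 8.66 and 2.41 RPKM in isotype libraries 6 to 10. Library 9 was the highest in both, and library 4, low for immediate early genes, was the second highest in both. Their transcripts shared 58.8% (Hspa1a) and 62.3% (Hspa1b) of their 50-base stretches, so reads could be split between them and each is uncertain as a single gene. Summed, they averaged 5.51 ± 2.50 RPKM in antibody libraries and 7.70 ± 5.53 RPKM in isotype libraries (SD, n = 5 each), a difference of -0.35 on the log2(RPKM + 0.5) scale (two-sided exact permutation p = 0.492). Hspa1a alone had a log2 fold change of -0.16 (SE 0.38, adjusted p = 0.959 by limma), which was 0.16 without isotype library 9 and 0.02 without antibody library 5, and Hspa1b one of -0.51 (SE 0.35, adjusted p = 0.843 by limma).

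Cochaperone genes had folds of both signs. Dnajb1, an HSP40 that feeds clients to HSP70, averaged 8.87 ± 2.01 RPKM in antibody libraries and 9.89 ± 0.940 RPKM in isotype libraries (SD, n = 5 each; log2 fold change -0.18, SE 0.16). Hsph1, an HSP110 nucleotide exchange factor, averaged 25.3 ± 8.34 RPKM in antibody libraries and 29.9 ± 6.59 RPKM in isotype libraries (SD, n = 5 each; log2 fold change -0.28, SE 0.24). Bag3, which links HSP70 to autophagy, averaged 15.9 ± 5.17 RPKM in antibody libraries and 13.2 ± 4.57 RPKM in isotype libraries (SD, n = 5 each; log2 fold change 0.28, SE 0.27). Bag3 was highest in libraries 2, 3 and 7 and lowest in libraries 6, 4 and 10, closer to the order of Jun and Zfp36 than to that of Hspa8.

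Hspb1, the small heat shock protein HSP27 that binds unfolded proteins and actin, had the largest fold of the 30 tested members. It stood at 8.18, 12.8, 11.4, 10.3 and 8.90 RPKM in antibody libraries 1 to 5 and at 13.8, 18.2, 31.5, 16.0 and 18.7 RPKM in isotype libraries 6 to 10. Every antibody library lay below every isotype library, and library 8 was far above the other isotype libraries. The log2 fold change was -0.85 (SE 0.20, 95% interval -1.29 to -0.41). The limma unadjusted p was 0.00119 and the limma adjusted p 0.163. The exact permutation p, two-sided, was 0.00794, which again only restates the lack of overlap. Hspb1 was the 1 of 10 heat shock genes whose groups did not overlap, lower with the antibody, beside the shares of all tested genes given for Ier5. Without library 8 the fold was -0.67, and it ranged to -0.96 without library 6. The 15 acinar genes, which mark exocrine tissue, summed to 4255 to 13753 RPKM in antibody libraries (median 4676 RPKM). In isotype libraries they summed to 3252 to 18648 RPKM (median 12761 RPKM). All 15 had negative log2 fold changes, with a median of -0.63. Library 8 was the highest isotype library, as in the macrophage and mesenchymal lists of that group. The part of these cells in the Hspb1 level was not tested beyond the covariate fits. With the acinar level as a covariate the Hspb1 fold was -0.81 (adjusted p = 0.284 by limma), and with the ductal level -0.81 (adjusted p = 0.0634 by limma).

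In GRCm38.p6, Hspb1 spans chr5:135887919-135889563 and Ier5 chr1:155096367-155099636. Hspa1a (chr17:34969359-34972156) and Hspa1b (chr17:34956429-34959238) are neighbours, with Ier3 further along the same chromosome (chr17:35821713-35822911).

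Related genes outside the 32 also gave no calls. Of 45 further tested immediate early genes 0 were called higher and 0 lower, where 0.394% of all tested genes were called higher and 0.0149% lower. At such shares few or no calls would fall on a list of this size. At an unadjusted limma p under 0.05 there were 0 in either direction, against 2.84% higher and 4.18% lower over all tested genes. The median log2 fold change was -0.07. The smallest p-values were those of Zfp36l1, a relative of Zfp36, at 5.53 ± 2.59 RPKM in antibody libraries and 8.95 ± 3.96 RPKM in isotype libraries (SD, n = 5 each), with a log2 fold change of -0.66 (SE 0.35, adjusted p = 0.766 by limma), and of Gadd45g, a growth arrest gene (0.24, SE 0.13). They varied widely as well: 40 of the 45 had an SD above the median of all tested genes and 23 lay among the top 10%. The 48 listed genes present summed highest in library 2 and lowest in library 4 within the antibody group, and highest in library 9 and lowest in library 6 within the isotype group.

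Of 46 further heat shock and cochaperone genes 37 had negative folds and 9 positive ones, and the median was -0.12. Over all tested genes 8938 folds were negative and 4512 positive, with a median of -0.07. Of the 46 genes 0 were called, beside the all-gene shares given above. At an unadjusted limma p under 0.05, 1 was lower, against 4.18% of all tested genes. The 1 was Fkbp4, an HSP90 cochaperone, at 76.6 ± 12.2 RPKM in antibody libraries and 92.6 ± 7.28 RPKM in isotype libraries (SD, n = 5 each), with a log2 fold change of -0.28 (SE 0.13, adjusted p = 0.707 by limma). Hspb6, a small heat shock protein gene, had the next smallest p and a positive fold (0.45, SE 0.23), unlike Hspb1. Of these 46 genes 12 had an SD above the median of all tested genes. Among 17 tested regulators 0 were called, beside the same all-gene shares, and the median was -0.04. The smallest p-values were those of Hsf4, a heat shock factor gene (-0.28, SE 0.14), and Mapk14, the kinase p38 alpha (-0.14, SE 0.11).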

How the data were processed

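PolyA RNA of 10 islet libraries was sequenced from Nextera XT libraries, per the labels' protocols. The authors deposited 1 table of RPKM values per gene and library, a unit relative to gene length and sequencing depth. CASAVA 1.8.2, FastQC and the builds GRCm38 and mm10 are named without roles in the submitters' processing notes, while aligner, counter and annotation were not given in the sources used here. A kit of this type does not mark strand, so reads of overlapping genes could not be separated.

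No scaling was added to the deposited values, which were analysed as log2(RPKM + 0.5). The filter was a mean of 0.5 RPKM over all libraries. The fit used limma 3.58.1 in R 4.3.3 (variance trend, Benjamini-Hochberg over 13450 genes, threshold 0.05). This step was tested on simulated data with independent normal errors for each gene. Those data lack the order of libraries that genes share here, so error rates in the simulation may not hold for these libraries. A fold on this scale understates changes of low genes. Exact permutation tests used all 252 assignments. Python 3.11.15 with numpy 2.4.6, pandas 2.3.3 and matplotlib 3.10.9 gave ranks, sums, motif matches and plots.

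Depth was estimated by finding, for genes with a single RefSeq-linked length in GENCODE M21 (15614), the step of low values worth 1 read; in each library 70.6% to 74.0% of those values came within 0.1 of a whole read, where 20% would by chance, though the step was chosen on the same values. Whole reads could not be had for nearly all genes, which is why count models were not used. Read numbers per gene are estimates from the longest RefSeq-linked transcript.

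The members and lists were chosen with earlier results of these data known. Library values are printed, by rule, for the 4 members per group with the smallest p, the 4 most abundant, Hspa1a and Hspa1b; those of Fos, Ier2 and Nr4a1 were added after their spread was seen. Coordinates come from RefSeq in GRCm38.p6, found for all 32 members. Outlying libraries were sought with Dixon's test. Alternatives were scaling by trimmed mean, quantiles or medians, pseudocounts of 0.1 and 1, a filter of 5 RPKM or none, array weights, a fit with no trend, covariates for the acinar or ductal level, and leaving out each library.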

Additional observations from a re-analysis of the deposited data

Results flagged for a closer look

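Dixon's test for 1 value far from the other 4 was applied to the RPKM of each member in each group, 64 sets of 5 libraries in all. Chance flags about 1 in 20 where values are normally distributed. High values stand out more in RPKM than on the log2 scale used elsewhere, and the log2 scale was not tried. The number of flags therefore cannot be read against that rate. It picked out 9. Library 2 stood high in the antibody group for Fos (47.2 RPKM, next 14.2), Fosb (0.931 RPKM, next 0.407) and Jun (43.1 RPKM, next 21.4). Library 1 stood high for Hspd1 (84.9 RPKM, next 67.9) and library 5 low for Dnajb1 (5.39 RPKM, next 9.01) in the same group. In the isotype group library 9 stood high for Hspa1a (8.69 RPKM, next 3.67) and Hspa1b (8.66 RPKM, next 3.19), which share sequence and are not independent. Library 8 stood high there for Hspb1 (31.5 RPKM, next 18.7) and library 6 for Ier5 (9.53 RPKM, next 7.54).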

How the results depend on the processing

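Under 21 alternatives the number of called members stayed at 0 in both groups and both directions, with 1 exception: array weights called 1 immediate early gene lower (Ier5), in a fit that called 61 genes lower over the whole table in place of 2. The median log2 fold change of the immediate early genes stayed negative, from -0.51 without isotype library 6 to -0.10 without isotype library 9, and that of the heat shock genes from -0.30 with the acinar covariate to -0.11 with median centring or without antibody library 5. These medians moved by less than the pooled within-group SD of the library medians, 0.52 for immediate early and 0.22 for heat shock genes. Both SDs exceed the size of the main medians (-0.35 and -0.19), so this comparison could hardly fail and does not show stability. Of 30 tested members 21 kept their sign in every alternative run and 9 did not (Jun, Egr1, Nr4a1, Nr4a2, Dusp5, Klf4, Zfp36, Hspa1a and Hspe1), none of them past the threshold in any alternative. Without antibody library 2 the fold was -0.08 for Jun, -0.05 for Zfp36 and -0.01 for Dusp5, and without isotype library 6 it was -0.07 for Jun, -0.14 for Nr4a2 and -0.04 for Dusp5. Klf4 reached 0.14 without isotype library 9. Scaling moved the median of all genes from -0.07 to 0.01 at most. The covariates were estimated from the same 10 libraries. The acinar level was mostly lower in the antibody libraries, so a fit with it as a covariate adjusts in part for the group itself. No paired analysis was possible because the labels give no pairing of libraries between the 2 groups. Depth limits Egr2, Egr3, Fosb and Fosl1, which rest on few reads per library.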

Other observations

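Cxcl1, Il6 and Ptgs2, from the list of further immediate early genes, had an order of libraries unlike that of Fos and Egr1. These 3 were singled out after their values were seen, and other genes of the list differed from them: Socs3, an inhibitor of cytokine signalling, was highest in libraries 2, 9, 3 and 7. Cxcl1, a neutrophil-attracting chemokine, had 4.30, 7.05, 37.1, 0.648 and 18.6 RPKM in antibody libraries 1 to 5 and 0.498, 2.12, 1.42, 2.26 and 9.33 RPKM in isotype libraries 6 to 10 (log2 fold change 1.55, SE 0.84, adjusted p = 0.766 by limma). Libraries 3, 5 and 10 were highest and libraries 4 and 6 lowest, and the groups overlapped. Il6, the cytokine interleukin 6, had 1.90, 2.18, 2.37, 0.691 and 20.5 RPKM in antibody libraries 1 to 5 and 0.724, 1.34, 0.806, 0.926 and 7.72 RPKM in isotype libraries 6 to 10, with libraries 5 and 10 standing apart (log2 fold change 0.75, SE 0.72, adjusted p = 0.878 by limma). Ptgs2, the inducible cyclooxygenase, had 2.11, 5.30, 3.55, 0.692 and 8.40 RPKM in antibody libraries 1 to 5 and 0.361, 4.59, 4.58, 3.08 and 12.1 RPKM in isotype libraries 6 to 10, highest again in libraries 10 and 5 (log2 fold change -0.12, SE 0.67). Libraries 4 and 6 were the 2 lowest in all 3 of these genes, as they were among the 3 lowest of most immediate early members.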
